A study of Mus musculus with 2 samples.

Results

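The mature miRNAs of the Clcn5 cluster were measured by small RNA sequencing in cultured fibro-adipogenic progenitors (FAPs), stromal cells of mouse skeletal muscle that can turn into fat cells. The cluster holds the hairpins miR-188, miR-362, miR-500, miR-501 and miR-532. Members were chosen by name as every listed arm of these 5 hairpins, which gave 9 of the 628 listed miRNAs. miR-500-5p has no row in the table.

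Both groups were wild-type C57Bl/6 FAPs, sorted as Sca1+ cells from skeletal muscle and grown in culture with 5 ng/ml FGF, 10% HS and 20% FBS until about 80% confluent. One group was then kept for 24 h in basal medium (BM, with 10% HS) and the other for 24 h in adipogenic differentiation medium (ADM), with a composition not given in the sources used here. Each medium has 1 library, so no difference has a replicate check and no p-value is given. The libraries held 755193 reads (BM) and 790617 reads (ADM) in the deposited total, recovered from the authors' percent values. Levels are RPM (the percent value times 10000), and intervals are 95% counting intervals.

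A miRNA hairpin is cut from a longer transcript by Drosha and then by Dicer, which leaves a short duplex. One strand of the duplex, the 5p or the 3p arm, is usually kept by an Argonaute protein, and its seed (bases 2 to 8) pairs with target mRNAs. Hairpins of one intron can be made from one primary transcript and still differ in how much mature miRNA each yields. The host gene Clcn5 encodes ClC-5, a chloride and proton exchanger of endosomes. miR-188 has been reported in mouse marrow stromal cells to favour fat over bone formation, and miR-501 has been reported to act in myogenic progenitors of mouse muscle.

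All 5 hairpins lie on the minus strand of chromosome X within 10815 bp, at chrX:7237683-7248497 (GRCm38). In the GENCODE M21 annotation they fall in 1 intron of Clcn5 (chrX:7213011-7316658, 103648 bp), and none overlaps an exon. That intron belongs to 3 of the 5 annotated Clcn5 transcripts. The other 2 transcripts start downstream of the cluster and do not contain it. In the direction of transcription the order is miR-532 (chrX:7248402-7248497), miR-188 (chrX:7247989-7248056), miR-362 (chrX:7241982-7242046), miR-501 (chrX:7241243-7241351) and miR-500 (chrX:7237683-7237774). The hairpins form 2 close pairs, with 345 bp between miR-532 and miR-188 and 630 bp between miR-362 and miR-501. A gap of 5942 bp separates the pairs, and miR-500 follows after another 3468 bp.

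The mature sequences show which members could share targets. RefSeq sequences (GRCm38.p6) were matched for 8 of the 9 listed arms. The unmatched arm is miR-532-5p, the most abundant one, so its seed was not compared. The 8 sequences are written 5′ to 3′ with the seed in capitals.
miR-501-3p: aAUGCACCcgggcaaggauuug
miR-500-3p: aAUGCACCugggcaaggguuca
miR-362-3p: aACACACCuguucaaggauuca
miR-362-5p: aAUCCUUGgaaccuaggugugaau
miR-501-5p: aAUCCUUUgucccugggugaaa
miR-188-5p: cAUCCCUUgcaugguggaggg
miR-188-3p: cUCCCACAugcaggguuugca
miR-532-3p: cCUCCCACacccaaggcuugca
miR-501-3p and miR-500-3p have the same seed, AUGCACC, and no other listed miRNA with a matched sequence (518 of 635 names) carries it. The seed of miR-362-5p, AUCCUUG, is shared with the unlisted miR-500-5p and differs in its last base from that of miR-501-5p. The seeds of miR-188-3p and miR-532-3p overlap with a shift of 1 base. Outside the cluster, miR-362-3p shares its seed with miR-329-3p, a miRNA of the imprinted Dlk1-Dio3 region.

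miR-501-3p was the one abundant arm of the cluster with a clearly different level in the 2 libraries, with 1.97-fold less in ADM, while the most abundant arm, miR-532-5p, differed by less than its counting error. The remaining arms were scarce, and of these only miR-532-3p had a ratio whose counting interval excluded 1. None of the 7 arms with a mean of at least 10 RPM reached a 2-fold difference as scaled here.

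**Figure D1:**
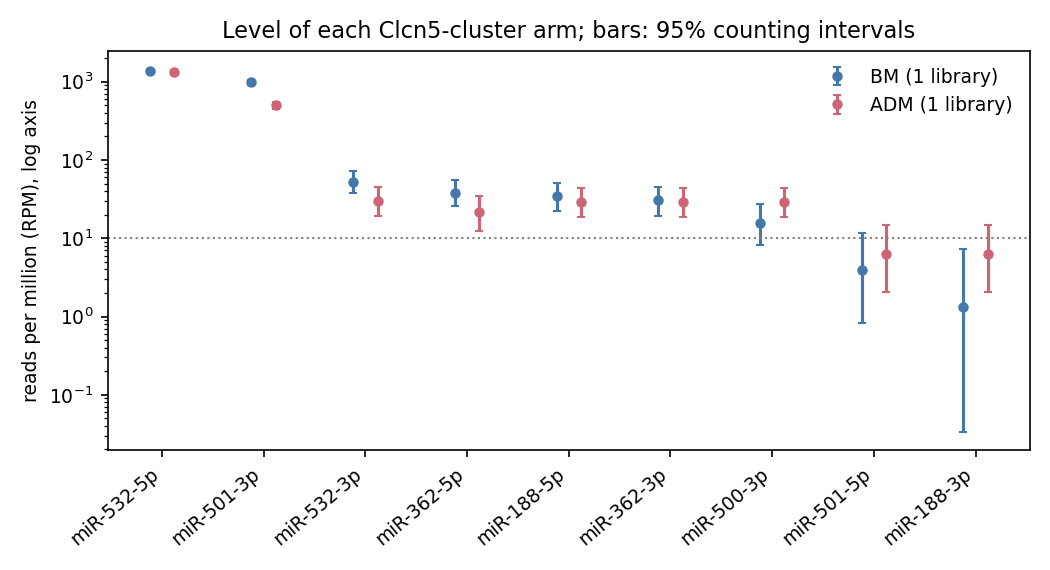
RPM (log axis) of each listed arm in BM (blue) and ADM (red), 1 library each; bars are 95% counting intervals and the dotted line is the 10 RPM minimum. miR-532-5p and miR-501-3p stand far above the other arms, and the BM and ADM intervals of miR-501-3p do not overlap.

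miR-532-5p had 1036 BM reads and 1039 ADM reads, or 1372 RPM (1290 to 1458) and 1314 RPM (1235 to 1397). Its level was nearly the same in both media, at rank 62 of the 628 miRNAs in BM and rank 67 in ADM. The ADM level was 0.958 times the BM level (0.878 to 1.05; log2 ratio -0.06, or 0.00 with median ratio scaling). A 2-fold difference in either direction lay outside this interval.

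miR-501-3p had 740 BM reads and 394 ADM reads, or 980 RPM (911 to 1053) and 498 RPM (450 to 550). The BM library was the higher one, and the rank went from 72 in BM to 91 in ADM. The level in ADM was 1.97-fold lower (1.74 to 2.23), and the log2 ratio of RPM + 1 was -0.97. For this arm the ratio in the authors' deposited table is 0.509. Under trimmed mean scaling of M values the ratio was -1.08 and passed 2-fold. That scaling moves all miRNAs by -0.10 on the log2 scale.

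The 2 abundant arms were also compared inside each library, a measure that needs no scaling and was chosen after their values were seen. For every 100 reads of miR-532-5p there were 71.4 reads of miR-501-3p in BM and 37.9 in ADM. This relative level was 1.88-fold lower in ADM (1.62 to 2.19). The unequal change between these 2 arms from 1 intron therefore exceeded counting error whatever the library total.

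Among the scarce arms, miR-532-3p had 40 BM reads and 24 ADM reads, or 53.0 and 30.4 RPM. It was 1.74-fold lower in ADM (1.03 to 3.03), an interval that just leaves out 1. miR-362-5p had 29 and 17 reads (38.4 and 21.5 RPM) and a ratio of 0.560 (0.289 to 1.05). Both had fewer reads in ADM, and counting error alone spans no difference for the latter.

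miR-188-5p, the arm studied in the choice between bone and fat, had 26 BM reads and 23 ADM reads (34.4 and 29.1 RPM). Its ratio was 0.845 (0.461 to 1.54), so a level 2-fold lower in ADM lay within counting error at this depth. miR-362-3p had 23 reads in each library and a ratio of 0.955 (0.512 to 1.78). These arms were near equal in both media within wide limits.

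miR-500-3p was the one member above the minimum with a higher RPM in ADM, with 12 BM reads and 23 ADM reads (15.9 and 29.1 RPM). Its ratio of 1.83 had an interval of 0.874 to 4.04 that includes 1. miR-501-5p with 3 and 5 reads and miR-188-3p with 1 and 5 reads were below 10 RPM as the mean of both libraries and were not compared. For miR-188-3p the ratio of 4.78 had an interval from 0.534 to 226, which shows how little so few reads fix.

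The order of levels was miR-532-5p, then miR-501-3p, then all other arms, in both libraries. The listed arms with a sequence are 21 to 24 bases long, and reads were not divided by length. In BM the intervals of miR-532-3p (37.8 to 72.1 RPM), miR-362-5p (25.7 to 55.1), miR-188-5p (22.5 to 50.4) and miR-362-3p (19.3 to 45.7) overlapped, so their order is not fixed by these reads. In ADM the intervals of these 4 arms and of miR-500-3p (18.4 to 43.7 RPM) all overlapped. Differences in how well each arm is ligated and amplified were not tested.

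Across the cluster, 0 of the 7 arms above the minimum were at least 2-fold apart, against 31.2% of the 337 miRNAs of the whole table above it (10.7% higher and 20.5% lower in ADM). Under trimmed mean scaling of M values 1 of the 7 was lower, beside 23.4% of all. Ratios were below 0 on the log2 scale for 6 of the 7 (5 with median ratio scaling) and above 0 for 1, with a median of -0.24 and a range from -0.97 to 0.83. Over all 337 miRNAs, 173 ratios were below 0 and 164 above, with a median of -0.02. An interval that excluded 1 was found for miR-501-3p and miR-532-3p, 2 of the 7, both lower; over all 337 miRNAs, 60.2% had such an interval and 30.9% were lower by it.

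**Figure D2:**
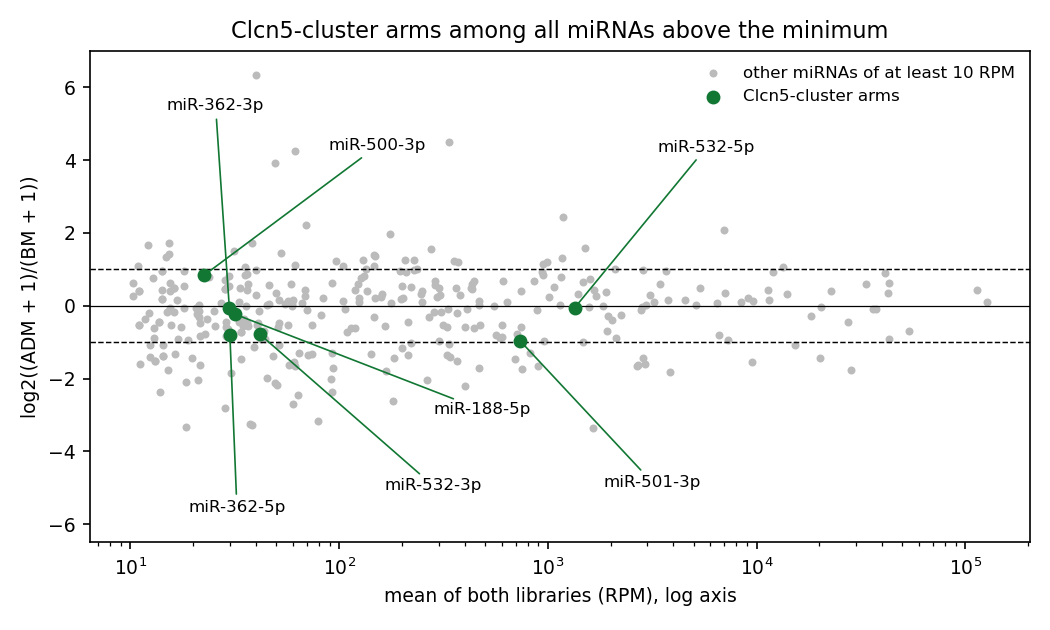
Log2 ratio of ADM to BM (RPM + 1) against the mean RPM of both libraries (log axis) for the 337 miRNAs above the minimum; cluster arms are green and dashed lines mark 2-fold. miR-501-3p sits at -0.97, just inside the lower line, and miR-532-5p at -0.06.

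The 9 arms together had 1910 reads in BM and 1553 in ADM, or 0.253% (0.242 to 0.265) and 0.196% (0.187 to 0.206) of reads. The summed share was 1.29-fold lower in ADM (1.20 to 1.38). This value rested on miR-501-3p. Without that arm, left out after seeing the data, the others had 1170 and 1159 reads and a ratio of 0.946 (0.872 to 1.03). Without miR-532-5p the ratio was 0.562 (0.503 to 0.627). The make-up of the cluster's reads differed accordingly: miR-532-5p was 54.2% of them in BM (52.0 to 56.5) and 66.9% in ADM (64.5 to 69.2). miR-501-3p was 38.7% (36.6 to 41.0) in BM and 25.4% (23.2 to 27.6) in ADM.

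**Figure D3:**
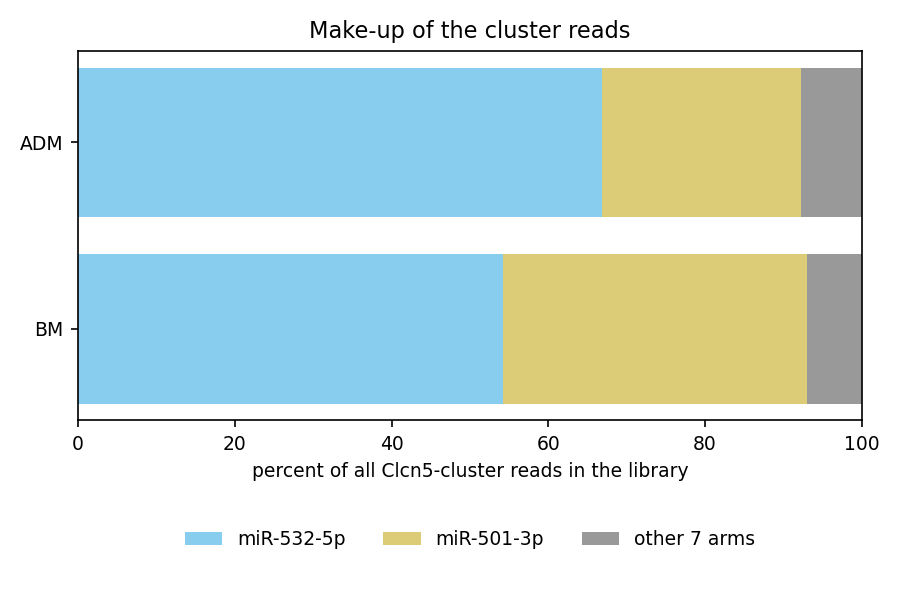
Share of all Clcn5-cluster reads held by miR-532-5p, miR-501-3p and the other 7 arms, in percent, in the BM and ADM libraries (1 each). The share of miR-501-3p is 38.7% in BM and 25.4% in ADM.

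Hairpin sums placed these differences along the intron. miR-532, the first hairpin, had 1076 reads in BM and 1063 in ADM, a ratio of 0.944 (0.866 to 1.03). Its close neighbour miR-188 had 27 and 28 reads and a ratio of 0.991 (0.563 to 1.75). Both hairpins of this pair had nearly equal reads in the 2 media.

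The second pair starts 6.45 kb after the miR-532 hairpin. miR-362 had 52 reads in BM and 40 in ADM, a ratio of 0.735 (0.474 to 1.13). miR-501 had 743 and 399 reads and a ratio of 0.513 (0.453 to 0.580). miR-500, the last hairpin, was listed with its 3p arm only and had the ratio given above. The interval of miR-501 overlapped those of miR-362 and miR-188, which rest on few reads, but not those of miR-532 and miR-500.

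**Figure D4:**
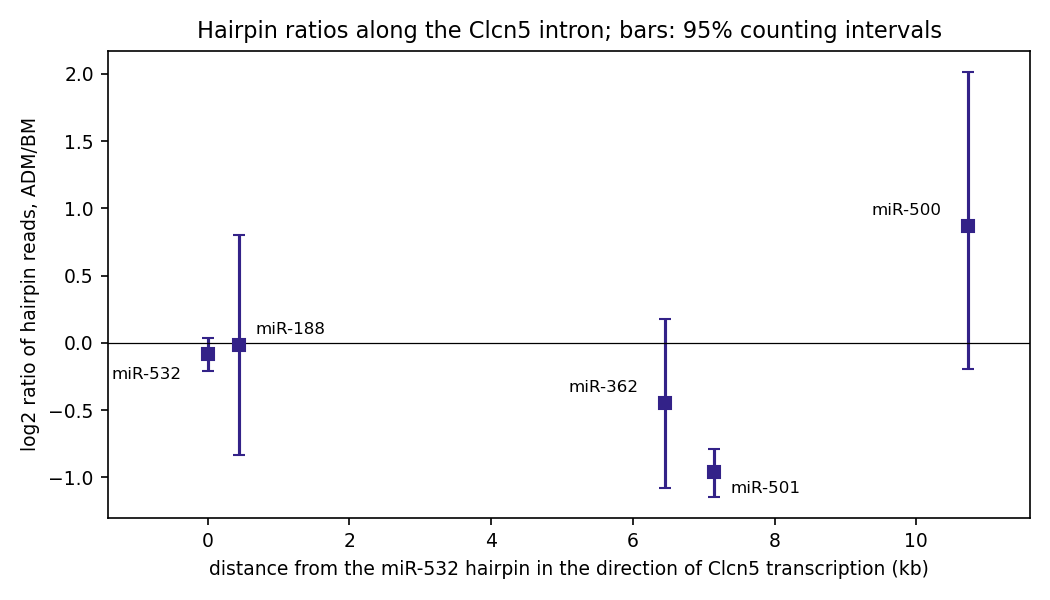
Log2 ratio of hairpin reads (both arms summed, no pseudocount), ADM over BM, against the distance in kb from the miR-532 hairpin in the direction of Clcn5 transcription; bars are 95% counting intervals. The miR-501 interval lies wholly below 0, and the other 4 hairpins have intervals that include 0.

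The hairpin sequences show where the arms lie, here in capitals, for miR-362, which used both arms, and for the seed partners miR-501 and miR-500 (RefSeq, GRCm38.p6, minus strand).
Mir501: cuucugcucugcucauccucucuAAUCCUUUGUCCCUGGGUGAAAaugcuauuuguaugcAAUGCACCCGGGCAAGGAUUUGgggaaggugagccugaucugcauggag
Mir500: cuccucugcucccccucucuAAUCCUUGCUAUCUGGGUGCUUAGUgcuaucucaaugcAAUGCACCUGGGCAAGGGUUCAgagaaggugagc
Mir362: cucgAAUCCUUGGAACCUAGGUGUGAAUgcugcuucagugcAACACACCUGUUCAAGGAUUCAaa
The kept arm differed between hairpins. For miR-532 the 5p arm was 96.3% of reads in BM (94.97 to 97.3) and 97.7% in ADM (96.7 to 98.5). For miR-501 the 3p arm was 99.6% (98.8 to 99.9) and 98.7% (97.1 to 99.6). miR-362 used both arms, with 55.8% 5p in BM (41.3 to 69.5) and 42.5% in ADM (27.0 to 59.1).

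miR-188 was mostly 5p, with 96.3% in BM (81.0 to 99.9) and 82.1% in ADM (63.1 to 93.9). None of the 4 hairpins with both arms listed showed a shift between arms beyond counting error. The 5p to 3p ratio in ADM over that in BM was 1.67 for miR-532 (0.975 to 2.92), 0.586 for miR-362 (0.234 to 1.46), 3.13 for miR-501 (0.605 to 20.2) and 0.177 for miR-188 (0.00361 to 1.80).

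The seed partners miR-501-3p and miR-500-3p had different ratios. Their sequences are identical at 18 of 22 positions, and the differing bases are in capitals here.
miR-501-3p: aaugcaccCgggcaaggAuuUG
miR-500-3p: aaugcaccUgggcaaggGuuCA
Counted from the 5′ end, with the miR-501-3p base first, the differences are C9U, A18G, U21C and G22A, all outside the seed. The sources used here do not say how reads that match both, such as trimmed reads, were counted. For every 100 reads of miR-501-3p there were 1.62 reads of miR-500-3p in BM and 5.84 in ADM, a relative level 3.60-fold higher in ADM (1.70 to 8.02). This pair was also compared after its values were seen. Summed, the AUGCACC seed had 752 reads in BM and 417 in ADM, with a ratio of 0.530 (0.469 to 0.598), close to that of miR-501-3p alone since that arm supplied nearly all reads.

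The ACACACC seed was carried by miR-362-3p and miR-329-3p. For miR-329-3p there were 15 BM reads and 5 ADM reads, a level 3.14-fold lower in ADM (1.09 to 11.0). Together the 2 miRNAs had 38 and 28 reads, with a ratio of 0.704 (0.416 to 1.18). The cluster member and the Dlk1-Dio3 miRNA had overlapping intervals.

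The closest levels to those of miR-532-5p outside the cluster, by distance in log2(RPM + 1) over the 2 libraries, were those of miR-301a-3p, miR-182-5p and miR-31-5p. miR-301a-3p had 936 and 1228 reads (distance 0.28), miR-182-5p had 1211 and 1234 (0.33) and miR-31-5p had 856 and 909 (0.34). With only 2 libraries this likeness is one of level more than of pattern.

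Other multi-hairpin clusters gave the size of differences to set beside the Clcn5 cluster; each was described in the same libraries, and no test between clusters was possible. The miR-322 cluster is also X-linked and includes miR-503, miR-542, miR-351 and miR-450. All 6 of its arms above the minimum had ratios below 0, though not every interval excluded 1. Of all 337 miRNAs, 173 had ratios below 0. The miR-322 cluster had a median of -0.65 and 1 arm at least 2-fold lower, against 20.5% of all 337 miRNAs. Its most abundant arm, miR-351-5p, had 3092 and 1050 reads. Its summed share was 2.66-fold lower in ADM (2.50 to 2.83), against 1.29-fold for the Clcn5 cluster. The X-linked miRNAs outside the Clcn5 cluster numbered 51, a set that includes arms of the miR-322 cluster and so is not a separate comparison. In this set 23 were above the minimum, with a median of -0.45. Of these, 4 were at least 2-fold lower, miR-351-5p among them, and 1 higher, beside 20.5% lower and 10.7% higher in the whole table.

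The cluster of miR-106b, miR-93 and miR-25, in introns of Mcm7, had 3 of 6 arms at least 2-fold higher in ADM, against 10.7% of all 337 miRNAs, and a median of 0.95. Its most abundant arm, miR-25-3p, had 2069 and 3259 reads. The pair of miR-191 and miR-425, hosted by Dalrd3, had 0 of 3 arms 2-fold apart, against 31.2% of all 337 miRNAs. Its median was 0.41, and miR-191-5p had 14725 and 20538 reads. The median of the Clcn5 cluster lay between those of the X-linked miR-322 cluster and these autosomal clusters.

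Of the other miRNAs reported in the choice of mesenchymal cells between bone and fat, 3 of 6 arms above the minimum were at least 2-fold lower in ADM and 0 higher, with a median of -0.91, against 20.5% lower and 10.7% higher over all 337 miRNAs. miR-204-5p had 109 BM reads and 34 ADM reads, miR-335-5p had 53 and 21, and miR-335-3p had 38 and 5. miR-31-5p (log2 ratio 0.02), miR-218-5p (0.56) and miR-218-1-3p (-0.45) were less than 2-fold apart. miR-188-5p, with a log2 ratio of -0.24, was among the arms without a 2-fold difference.

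The 9 muscle marker arms, one of which is a row that miR-3107-5p shares with miR-486-5p, summed to 0.906% of reads in BM and 0.202% in ADM, and none was at 0 in either library. All 4 of them above the minimum were at least 2-fold lower in ADM, against 20.5% of all 337 miRNAs. The other 5 had 1 to 8 reads per library. The 2 endothelial arms had 88 and 203 reads, the 3 neural arms 389 and 165, the 4 epithelial arms 20 and 16, and the 2 blood arms 1 and 4; the counting intervals of the epithelial ratio (0.370 to 1.55) and the blood ratio (0.378 to 188) include 1. miR-451a, of red blood cells, and miR-200b-3p, of epithelia, were at 0 in BM and had 1 read each in ADM. In ADM, miR-141-3p and miR-205-5p were at 0, and they had 2 reads and 1 read in BM. So few reads do not separate absence from counting error. The muscle markers (summed ratio 0.223, 0.211 to 0.235) and the neural markers (0.405, 0.336 to 0.487) went the same way as miR-501-3p. Most reads of the neural sum came from 1 arm, miR-128-3p, with 358 BM reads and 145 ADM reads. For miR-9-5p, with 27 and 18 reads, the interval of the ratio (0.330 to 1.20) includes 1. The endothelial markers, both arms of miR-126, went the other way in sum (2.20, 1.71 to 2.86). The ratio was 2.63 for miR-126-5p (1.95 to 3.59) and 1.24 for miR-126-3p (0.728 to 2.13), whose interval includes 1. Whether any of these marker sets had a part in the difference of miR-501-3p was not tested. In such bulk samples, fewer cells of a type and less RNA per cell cannot be told apart. The deposited tables hold miRNAs only, so the Sca1+ identity of the cells and the level of the Clcn5 mRNA could not be checked in them.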

How the data were processed

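Per the labels' protocols, small RNA was extracted with a mirVana kit and made into Illumina TruSeq small RNA libraries with gel size selection. The authors deposited percent values per mature miRNA made with miRanalyzer, per the file headers; the sources used here give neither its version nor how it treated reads matching several miRNAs. A second deposited table adds the authors' ratio of ADM to BM, the log2 of that ratio and the mean percent, with 0 replaced by 0.5 read. The genome build was mm10, per the submitters' processing notes.

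In each library all percent values were whole multiples of the lowest nonzero value (tolerance 0.001 read), taken as 1 read (1.32 RPM in BM, 1.26 RPM in ADM). This recovered 755193 and 790617 reads. A miRNA was called when its mean was at least 10 RPM and log2((ADM + 1)/(BM + 1)) was at least 1 in size. The pseudocount of 1 RPM understates differences of scarce miRNAs. Ratios without pseudocount carry 95% exact conditional (Clopper-Pearson) intervals, shares exact binomial and levels exact Poisson intervals; ratios of 2 arms carry exact conditional odds-ratio intervals. They cover counting error only, since reads lack molecular identifiers. Python 3.11.15 and scipy 1.17.1 were used. The calling was tested on simulated data with planted differences well above 2-fold and counting noise only. That test does not cover differences near 2-fold or variation between libraries.

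The members and all lists (comparison clusters, other X-linked miRNAs, bone-fat list, and muscle, endothelial, blood, epithelial and neural markers) were chosen with earlier results of these data known. Named miRNAs are all cluster arms, the 3 miRNAs nearest to miR-532-5p in level and the most abundant arm of each comparison cluster. Seed sharers and bone-fat arms of at least 10 RPM are also named. Marker arms at 0, and the neural and endothelial arms, were named after their values were seen. RefSeq gave a chromosome for 547 of 628 rows. Alternatives were other pseudocounts, minimum levels, scalings, fold thresholds, and 1 arm per hairpin.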

Additional observations from a re-analysis of the deposited data

How the results depend on the processing

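Of 86 alternatives to the values above, 76 stayed within their limits and 10 moved outside them. The limits were the counting interval (for medians, that of the middle arm or arms) or a factor of 1.5 for counts. For scarce arms these limits are wide, such as -8.12 to 0.85 for the log2 arm difference of miR-188. Staying within such limits shows little. Since 0 members were called, there was no called difference that an alternative could reverse. The count of 0 members at least 2-fold apart became 1 under trimmed mean scaling of M values (miR-501-3p, lower), 1 without a minimum level (miR-188-3p, on 1 and 5 reads) and 4 with a 1.5-fold threshold (3 lower, 1 higher). Shares over the whole table without a minimum or at 1.5-fold were not computed, so those counts describe the members only. The summed ratio of the cluster, 0.777 as reported, was 0.723 with the trimmed mean of M values, 0.562 without its most abundant member and 0.946 without miR-501-3p, the last added after seeing the data. The median of the miR-191 cluster was 0.16 without a minimum and with a minimum of 100 RPM, as few arms set it. With median ratio scaling it was 0.48, and under trimmed mean scaling of M values 0.31. Those scalings move all miRNAs nearly alike on the log2 scale, by 0.06 and -0.10. The medians under them left their limits because the interval of the middle arm, miR-191-5p, is narrow (ratio 1.30 to 1.36). The median of the Clcn5 cluster ranged from -0.52 (2 arms, minimum of 100 RPM) to -0.06 (no minimum). The log2 ratio of miR-532-5p changed sign with median ratio scaling. No paired analysis was possible because each medium has 1 library. Depth limits the 7 arms other than miR-532-5p and miR-501-3p, where 40 reads or fewer per library leave wide intervals.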
